A study of Nannochloropsis oceanica with 15 samples.

Results

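The genes described here encode the ubiquitin and proteasome system of Nannochloropsis oceanica strain IMET1, a unicellular marine alga grown for its oil. They were chosen by annotation, not by expression. A gene was taken where its Swiss-Prot annotation named a proteasome subunit, an enzyme of ubiquitin activation, conjugation or ligation, a cullin or a ubiquitin carboxyl-terminal hydrolase. Genes whose KOG class (a broad functional category given to the protein) was cell cycle control, intracellular trafficking or replication were left out. The annotation matched 153 genes, 11 of them (9 cullins and 2 E3 ligases) were removed by the KOG class, and 142 of the 10434 genes in the table remained. Gene names are those of the closest Swiss-Prot protein, mostly of Arabidopsis, so they record similarity and not a tested function.

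Ubiquitin is a small protein that marks other proteins for breakdown. An E1 enzyme activates it, an E2 enzyme carries it, and an E3 ligase attaches it to a chosen protein, while deubiquitinases take it off again. The 26S proteasome then degrades the marked protein. Its 20S core is a barrel of alpha and beta subunit rings with the cutting sites inside, and its 19S cap holds ATPases that unfold the protein and non-ATPase subunits that bind and remove the ubiquitin. In plants and algae, protein breakdown is one way in which cells free nutrients and renew their proteome when a nutrient runs out. In Arabidopsis the E2 enzyme PHO2 and the E3 ligase NLA control phosphate transporters. No member carried the Swiss-Prot name of either enzyme (UBC24 or BAH1).

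Total RNA was sequenced at 0, 6, 12, 24 and 48 h, with 3 libraries per time, named a, b and c, and 15 libraries in all. Cells of 1 strain had been grown under continuous light, spun down, washed in seawater and moved to f/2 medium that lacked phosphate. All 15 libraries, those at 0 h included, are labelled as phosphate deprivation. Library titles carry a P at the later times only and not at 0 h. The protocol also mentions cultures in complete f/2 medium, but no library is labelled as one, so lack of phosphate, handling and time in fresh medium cannot be told apart. The protocol speaks of triplicate cultures and does not say whether a letter is the same culture at each time, so p-values measure the spread between these libraries. Library totals ran from 16649421 to 26349336 counts. A count of 0 allows a level of up to 0.105 to 0.187 CPM (counts scaled to library size), the value of 3 counts in the deepest and the shallowest library, and this covers counting error only. Genes that the lineage carries were looked up beside the species label. The table holds genes of this species only, so their presence could not have shown another species. All 25 genes for chlorophyll-binding proteins of its light-harvesting type passed the filter on low counts, as did both genes for the lipid droplet surface protein. A change in every cell and a change in the mix of cell states in the culture cannot be told apart in bulk RNA.

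Levels are given in CPM, scaled between libraries by the trimmed mean of M-values (TMM), always in the order of libraries a, b and c. Changes are log2 differences between times from edgeR's quasi-likelihood fit over all 15 libraries, with the standard error, and a change was called at a Benjamini-Hochberg adjusted p below 0.05 over the 9321 genes that passed the filter. The words higher, lower, rose and fell are used only of called changes. Of the 142 members, 131 passed the filter and 11 did not, 5 of which had no count in any library. Within a time, 7 members had under 10 counts in at least 1 library and 100 or more in another, and 5 of these 7 were among those tested. Of the tested ones, NO14G03240 and NO25G01690 are named with their role and the others near the end. Those not tested are not described further.

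Among the 131 tested members, 102 differed over the 5 times by the edgeR F-test, 77.9%, close to the 76.0% of all tested genes. At 6 h, 51 members were higher and 24 lower than at 0 h. Of all tested genes, 50.3% were called in that comparison, 24.7% as higher and 25.7% as lower. At 12 h, 58 members were higher and 37 lower than at 0 h, where 64.8% of all tested genes were called, 32.1% higher and 32.7% lower. At 24 h, 43 members were higher and 23 lower, beside 46.0% of all tested genes called, 25.2% higher and 20.8% lower. At 48 h, 36 members were higher and 29 lower, beside 49.3% of all tested genes called, 26.3% higher and 23.0% lower. These 4 comparisons share the 0 h libraries, so they are not independent of each other.

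The higher members were mostly subunits of the proteasome itself. Of the 42 tested subunit genes of the 26S proteasome, 33 were higher and 2 lower at 6 h compared with 0 h, and 34 were higher and 2 lower at 12 h. Their median log2 change was 0.89 at 6 h and 0.94 at 12 h, where the median of all tested genes was -0.03 and -0.04. Of the other 89 tested members, the enzymes of ubiquitin transfer and removal, 18 were higher and 22 lower at 6 h, and 24 were higher and 35 lower at 12 h, with medians of -0.04 and -0.21. At 12 h that is 26.97% higher and 39.3% lower. Whether the median of one group differed from that of the other was not tested.

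Summed over the 44 subunit genes, the level was 5767, 5789.9 and 5147 CPM at 6 h, against 3079.7, 3099 and 3005 CPM at 0 h. At 12 h the sum was 5618, 5787 and 6019.9 CPM. Every library at 6 and 12 h lay above every library at 0 h. Across the series the subunit sum was 3061 ± 49.7 at 0 h, 5568 ± 365 at 6 h, 5808 ± 202 at 12 h, 3842 ± 125 at 24 h and 3579.6 ± 138 CPM at 48 h (SD, n = 3 each). Some of the 44 gene models, described below, have an annotation partly or wholly outside the proteasome. Over the 38 genes without these, the sum was 2453 ± 59.6 at 0 h, 4644 ± 364 at 6 h and 4535 ± 200 CPM at 12 h. The mean of that sum was highest at 6 h. The 98 other members summed to 9892 ± 223 at 0 h, 9023 ± 347 at 6 h, 8122 ± 203 at 12 h, 8400.4 ± 359 at 24 h and 8199 ± 176 CPM at 48 h, with all 3 libraries at 12 h below all 3 at 0 h.

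**Figure D1:**
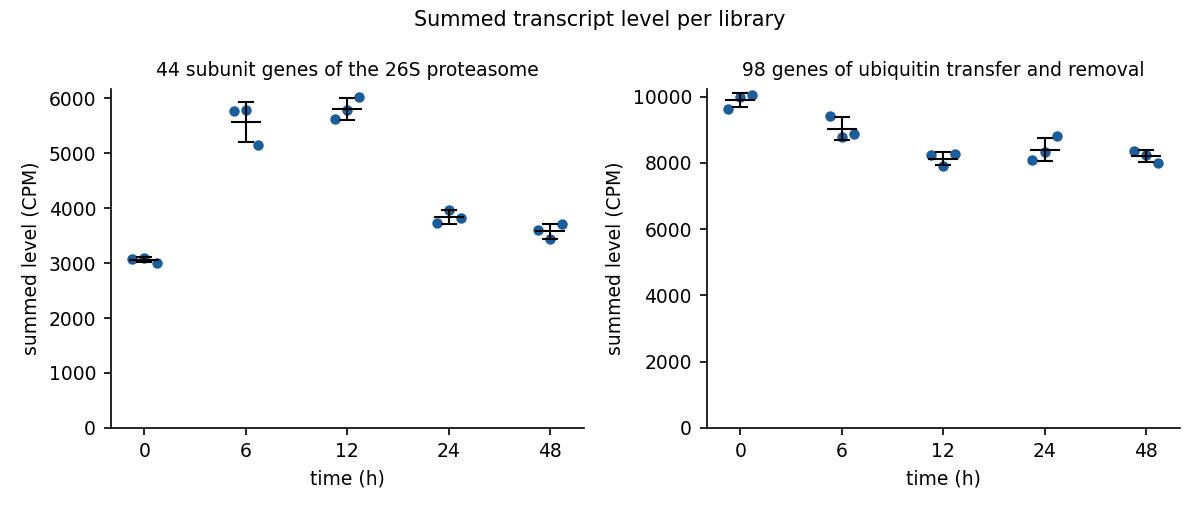
Summed level in CPM of the 44 genes of 26S proteasome subunits (left) and of the 98 other members (right) by time in hours, drawn at equal spacing. Each point is 1 library and the bars give the mean and SD of 3 libraries. The subunit sum reached 5808 ± 202 CPM at 12 h, against 3061 ± 49.7 CPM at 0 h. Over the 38 genes without an annotation outside the proteasome (not drawn), it was 4644 ± 364 CPM at 6 h and 4535 ± 200 CPM at 12 h. The other members summed to 8122 ± 203 CPM at 12 h, against 9892 ± 223 CPM at 0 h.

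The alpha subunits form the outer rings of the 20S core and the gate through which substrates enter. Of the 12 alpha genes, all of which were tested, 10 were higher at 6 h than at 0 h. The alpha type-7 gene NO06G00810 had 188, 181 and 159 CPM at 6 h, against 64.3, 70.9 and 70.3 CPM at 0 h. Per length it was the most abundant alpha gene, at a mean of 106 FPKM (fragments scaled to gene length and depth) over the series. Its libraries at 6 h were all above those at 0 h, and the log2 change was 1.36 ± 0.07 (SE, edgeR adjusted p = 6.3e-08).

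Alpha type-1 (NO15G02030) had 152, 150.2 and 146 CPM at 6 h, against 55.1, 67.7 and 58.9 CPM at 0 h, a log2 change of 1.30 ± 0.08 (edgeR adjusted p = 1.1e-07). Alpha type-2 (NO08G00580) had 104, 110.1 and 95.8 CPM at 6 h, against 43.7, 41.9 and 44.2 CPM at 0 h, a log2 change of 1.26 ± 0.06. The log2 changes at 6 h of alpha type-3 (NO28G01780), alpha type-4 (NO01G00750), alpha type-5 (NO22G00570) and alpha type-6 (NO12G00630) were 1.18, 1.07, 1.09 and 0.86. In all 7 of these genes the 6 h libraries lay above the 0 h libraries without overlap. By group mean, 11 of the 12 alpha genes had their highest level at 6 h, compared with 15.7% of all tested genes. At 12 h these 7 genes were all still above 0 h, and 4 alpha genes were lower at 12 h than at 6 h, among them alpha type-1 (-0.30 ± 0.08, edgeR adjusted p = 0.0062). The count of 4 became 2 without library a or without library b of 6 h. Between 12 and 6 h, 46.8% of all tested genes were called, 23.5% as higher and 23.3% as lower.

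The beta subunits form the inner rings, and those of types 5, 6 and 7 carry the cutting sites. Of 13 beta genes, 12 were tested. At 6 h, 6 were higher and 2 lower, and 7 were higher at 12 h. The beta type-5 gene NO21G01470 had 115, 126 and 124 CPM at 6 h, against 47.4, 45.6 and 47.3 CPM at 0 h, the largest rise of a beta gene at 6 h (1.38 ± 0.07, edgeR adjusted p = 6e-08). Beta type-7 (NO16G00520) changed by 1.21 ± 0.08 and beta type-6 (NO18G01720) by 0.76 ± 0.14. The type-6 gene had 152, 168 and 119 CPM at 6 h, against 89.6, 78.0 and 92.0 CPM at 0 h, without overlap between the times.

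Beta type-4 (NO01G03780) was the most abundant subunit gene of the whole 26S proteasome per length, at a mean of 127 FPKM, and had 265, 282 and 291 CPM at 12 h, against 120.1, 118 and 110.5 CPM at 0 h (1.27 ± 0.08, edgeR adjusted p = 5e-08). Beta type-1 (NO11G02410) changed by 1.19 ± 0.06 at 12 h. Beta type-3 (NO26G01150) averaged 213 ± 23.5 CPM at 6 h, against 145 ± 45.6 CPM at 0 h (SD, n = 3 each), and was not called (0.56 ± 0.27, edgeR adjusted p = 0.11); without library b of 0 h it was higher, by 0.84. The only beta type-2 gene with a plain match, NO11G02570, did not pass the filter. Its neighbour NO11G02560, whose protein also matches a ribosomal protein family, changed by 0.91 ± 0.07 at 6 h and 1.45 ± 0.07 at 12 h.

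Several 20S subunits were annotated on more than 1 gene, and the copies did not all move alike. For each of the 14 KEGG groups of 20S subunits, the gene with the lowest E-value was set apart from the rest, a split made after the values were seen and therefore a description. Of the 13 tested best matches, 12 were higher and 0 lower at 6 h and 12 were higher and 0 lower at 12 h, with medians of 1.18 and 1.02. Of the 11 other 20S genes, 4 were higher and 2 lower at 6 h, with a median of 0.12. At the times given, the second genes named below were lower than at 0 h, were not called or were counted unevenly. The 4 higher ones are not among them, so the named genes do not stand for all copies.

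The second beta type-5 gene, NO02G02900, matches its KEGG group with an E-value of 1.72e-29, where NO21G01470 has 1.80e-107. It had 31.8, 30.3 and 27.3 CPM at 12 h, against 60.2, 60.1 and 57.0 CPM at 0 h. It fell at 12 h in every library while NO21G01470 rose, with a log2 change of -0.99 ± 0.16 (edgeR adjusted p = 0.00013). Its changes at 24 h (-0.41) and 48 h (-0.45) lost their calls when single libraries were left out, at 24 h without 0 h a, b or c, 12 h b, 24 h a or b, or 48 h b, and at 48 h without 0 h a, b or c, or 48 h a or b. The call at 24 h was also lost with upper-quartile scaling (-0.40), and that at 48 h when only the 6 libraries compared were fitted (-0.46). The second beta type-3 gene, NO03G01250, had 36.0, 34.7 and 37.9 CPM at 6 h, against 57.6, 62.6 and 57.6 CPM at 0 h (-0.71 ± 0.16, edgeR adjusted p = 0.0024).

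The second beta type-6 gene, NO29G01510, averaged 49.5 ± 5.11 CPM at 6 h, against 54.7 ± 1.64 CPM at 0 h, and was not called (-0.14 ± 0.09, edgeR adjusted p = 0.23). The second alpha type-2 gene, NO02G02680, had 46.9, 24.5 and 46.7 CPM at 12 h, against 61.3, 58.8 and 57.0 CPM at 0 h, a log2 change of -0.58 ± 0.23 (edgeR adjusted p = 0.043). Library b is the lowest of the 3 at 12 h, and without it the change is -0.33 and not called. That call was also lost without 0 h a, b or c, without 6 h b or c, without 48 h a, b or c, with a replicate block (-0.59), and when only the 6 libraries compared were fitted (-0.58). The second alpha type-4 gene, NO14G03240, was counted unevenly. Its libraries at 0 h gave 1028, 3 and 13 counts, 6 h gave 10, 1599 and 1, 12 h gave 1, 1 and 1854, 24 h gave 1, 1948 and 1994, and 48 h gave 2, 15 and 2151. It was thus near 0 in some libraries and high in others of the same time, so no level per time is given.

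**Figure D2:**
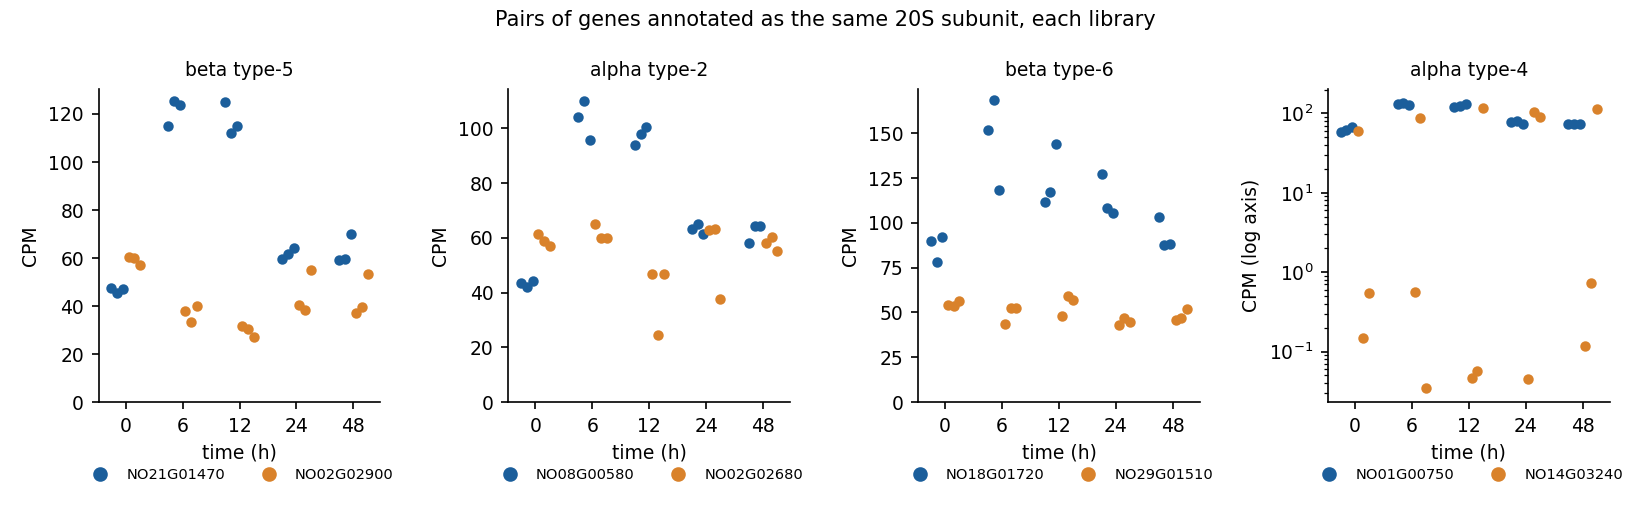
CPM of 4 pairs of genes annotated as the same 20S subunit, by time in hours at equal spacing, with each point 1 library (blue, the gene with the lowest E-value; orange, the second gene; a log axis for alpha type-4). The blue beta type-5 gene had 125, 112 and 115 CPM at 12 h, against 47.4, 45.6 and 47.3 CPM at 0 h, and the orange one 31.8, 30.3 and 27.3 CPM at 12 h, against 60.2, 60.1 and 57.0 CPM at 0 h. The 4 pairs do not stand for all copies.

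The ATPase subunits of the 19S cap, named RPT, form the ring that unfolds the substrate and feeds it into the core. Of the 7 genes with the Swiss-Prot name of an ATPase subunit, 6 were higher at 6 h and 7 at 12 h than at 0 h. All 7 had their highest mean at 12 h, compared with 27.7% of all tested genes. The RPT4-type gene NO28G00670 had the highest F statistic of any member over the 4 comparisons with 0 h. It had 150.4, 152 and 155 CPM at 12 h, against 119.6, 128 and 119 CPM at 6 h. Its mean level was 63.5 ± 0.583 at 0 h, 122 ± 5.001 at 6 h, 153 ± 2.63 at 12 h, 75.5 ± 1.001 at 24 h and 80.6 ± 3.65 at 48 h CPM (SD, n = 3 each). The log2 change at 12 h against 0 h was 1.26 ± 0.05 (edgeR adjusted p = 1.5e-09) and that at 12 h against 6 h was 0.32 ± 0.05 (edgeR adjusted p = 0.00012).

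All 7 ATPase genes were higher at 12 h than at 6 h, by 0.23 to 0.997 on the log2 scale. RPT3 (NO11G03130), the most abundant of them per length at a mean of 103 FPKM, had 258, 263 and 263 CPM at 12 h, against 212, 213 and 179 CPM at 6 h (0.38 ± 0.06, edgeR adjusted p = 0.00027). RPT1 (NO13G00360) changed by 0.34 ± 0.09 and RPT2 (NO09G00980) by 0.31 ± 0.08 between these times, calls that were lost when only the 6 libraries compared were fitted (0.35 and 0.32). RPT6 (NO15G01020) had 442, 485 and 459 CPM at 12 h, against 234, 217 and 243 CPM at 6 h. Its change of 0.997 ± 0.08 was the largest of the class, but its gene model, like that of RPT5 (NO02G04170), also matches an enzyme family that is not part of the proteasome. Reads of the 2 parts cannot be separated. With the 6 subunit models left out whose annotation points partly or wholly outside the proteasome, 29 of 36 subunit genes were higher at 6 h and 29 at 12 h. One of these 6 is NO12G01700. Its closest Swiss-Prot protein is RPT4, which brought it in, but its other annotation is that of ATPase family AAA domain-containing protein 3, a mitochondrial protein in animals, with no entry in the proteasome pathway. It stays in the counts because the rule goes by the Swiss-Prot name, and its own values are not read as those of a proteasome subunit. It had 77.9, 69.8 and 73.0 CPM at 48 h, against 116, 117 and 109 CPM at 0 h, a log2 change of -0.63 ± 0.10 (edgeR adjusted p = 0.00017).

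The non-ATPase subunits of the 19S cap, named RPN, hold the cap together and handle the ubiquitin chain. Of 12 genes, 11 were tested, and all 11 were higher at 6 h and all 11 at 12 h than at 0 h. The remaining gene, an RPN9 match (NO29G01120), had no count in any library. RPN2 (NO12G02270), one of the large scaffold subunits, had 448, 438 and 327 CPM at 6 h, against 147, 139 and 131 CPM at 0 h. Its change of 1.54 ± 0.10 was the largest of any tested subunit gene at 6 h (edgeR adjusted p = 2.1e-07). The other large scaffold subunit, RPN1 (NO09G00780), had 393, 375 and 309.7 CPM at 6 h, against 195, 206 and 196 CPM at 0 h (0.85 ± 0.08), and it was lower at 12 h than at 6 h (-0.44 ± 0.08, edgeR adjusted p = 0.00072).

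RPN11 (NO11G01440), which cuts the ubiquitin chain off the substrate, had 151, 131 and 144 CPM at 12 h, against 52.9, 58.1 and 53.7 CPM at 0 h. The change was 1.37 ± 0.07 (edgeR adjusted p = 9.4e-09), and the gene rose further at 12 h against 6 h (0.25 ± 0.07, edgeR adjusted p = 0.0095), a call that was lost with upper-quartile scaling (0.17). RPN8 (NO03G00430), its partner in the cap, took the same course, with 1.36 ± 0.08 at 12 h against 0 h and 0.28 ± 0.07 at 12 h against 6 h. The ubiquitin receptors RPN10 (NO06G02900) and RPN13 (NO01G03930) changed by 1.10 ± 0.11 and 0.88 ± 0.06 at 12 h. RPN3 (NO24G00350), RPN5 (NO17G00810) and RPN6 (NO07G03800) changed by 1.15 ± 0.10, 1.20 ± 0.08 and 1.01 ± 0.11 at 6 h, and RPN7 (NO04G01770) and RPN12 (NO05G01210) by 0.74 ± 0.06 and 0.98 ± 0.07. By group mean, 6 of the 11 were highest at 6 h and 5 at 12 h.

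**Figure D3:**
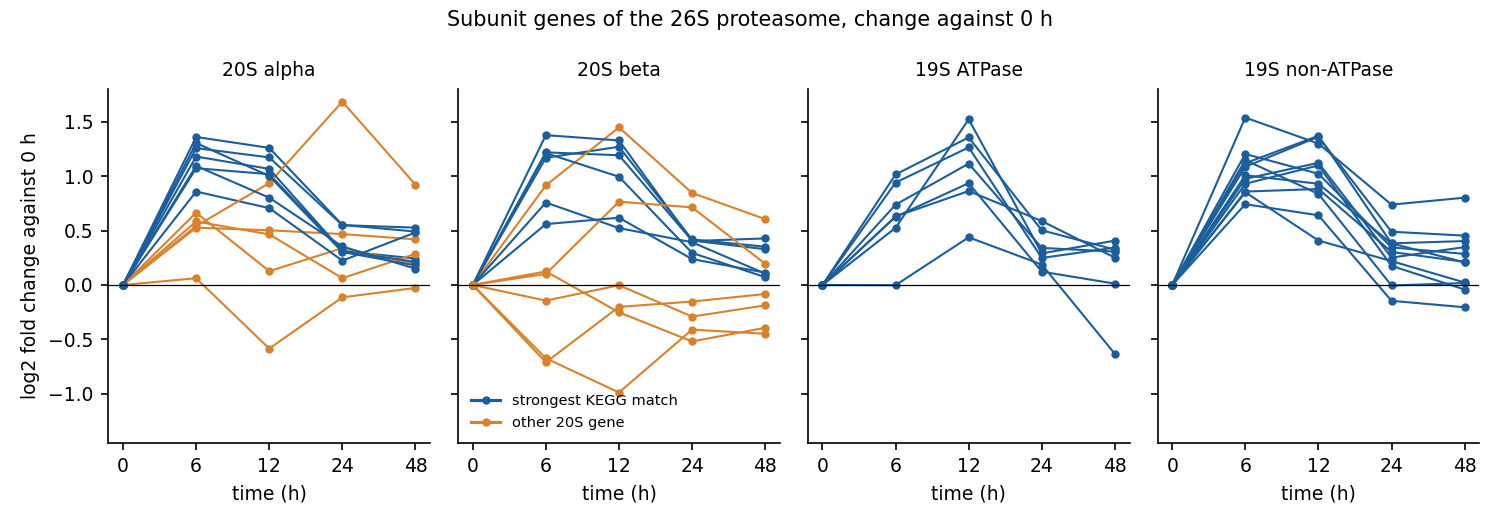
Log2 change against 0 h of every tested 26S subunit gene by time in hours at equal spacing, in 4 panels by role, with each line 1 gene (orange, 20S genes that are not the lowest E-value of their KEGG group; blue, all others). The lines of the 11 non-ATPase genes lie between 0.74 and 1.54 at 6 h, and the 7 lines of the ATPase panel, NO12G01700 among them, are highest at 12 h.

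The rise of the subunit genes was largely undone by 24 h. Between 24 and 12 h, 31 of the 42 tested subunit genes were lower and 1 higher, with a median log2 change of -0.61. Of all tested genes, 53.7% were called in that comparison, 27.2% as higher and 26.6% as lower. Beta type-4 (NO01G03780) had 156, 155 and 154 CPM at 24 h, against 265, 282 and 291 CPM at 12 h (-0.85 ± 0.08, edgeR adjusted p = 3.5e-06). RPN11 (NO11G01440) had 69.1, 74.4 and 71.3 CPM at 24 h, against 151, 131 and 144 CPM at 12 h (-0.99 ± 0.07, edgeR adjusted p = 4.4e-07). The 3 libraries at 24 h lay below the 3 at 12 h in both genes. The single subunit gene called higher was the second beta type-5 gene, NO02G02900 (0.58 ± 0.16, edgeR adjusted p = 0.0079), and without library c of 24 h there were 2 such genes.

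Many subunit genes were still above 0 h later on. At 24 h, 27 of the 42 were above 0 h and 3 below, with a median of 0.31, and at 48 h 21 were above and 3 below, with a median of 0.23. RPN2 (NO12G02270) had 239, 238 and 251 CPM at 48 h, against 147, 139 and 131 CPM at 0 h (0.80 ± 0.10, edgeR adjusted p = 3.8e-05). RPN3 (NO24G00350) was at 67.7, 74.3 and 71.4 CPM at 48 h, against 69.0, 77.8 and 64.0 CPM at 0 h, and was not called (0.02 ± 0.10, edgeR adjusted p = 0.9). RPN7 (NO04G01770) was below its 0 h level at 48 h (-0.20 ± 0.06, edgeR adjusted p = 0.014). The count below 0 h at 24 h rests on single libraries. It was 0 without 0 h c or without 24 h a, and 1 without 0 h a or without 24 h b. Fewer genes changed in the last interval. Between 48 and 24 h, 22.7% of all tested genes were called, 12.3% as higher and 10.4% as lower, and of the 131 members 6 were higher and 11 lower. The count of lower members was 6 or 7 without any 1 of the 3 libraries of 24 h or without 48 h a.

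The E1 enzymes start the chain by activating ubiquitin, and 3 of 4 E1 genes were tested. They did not share a course. E1 2 (NO12G00690) had 296, 239.7 and 242 CPM at 6 h, against 144, 146 and 149 CPM at 0 h, and was higher (0.83 ± 0.08, edgeR adjusted p = 5e-06). E1 1 (NO02G04400) had 51.5, 61.2 and 46.97 CPM at 12 h, against 90.9, 91.6 and 90.1 CPM at 0 h, and was lower (-0.77 ± 0.08, edgeR adjusted p = 2.8e-06). At 24 h E1 1 had 149, 146 and 149 CPM, against 51.5, 61.2 and 46.97 CPM at 12 h. This was the highest of its 5 times, with a log2 change of 1.48 ± 0.08 (edgeR adjusted p = 1.1e-07). E1 3 (NO21G01790) had 199, 168 and 92.5 CPM at 6 h, against 90.2, 77.9 and 0.546 CPM at 0 h, with library c of 0 h near 0. It was not called at 6 h (1.45 ± 0.95, edgeR adjusted p = 0.23), and without that library it was higher, by 0.87. This gene was added to those named after its values were seen.

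All 15 E2 genes were tested, and they split in both directions. At 12 h, 8 were higher and 5 lower than at 0 h, which is 53.3% and 33.3%, beside 32.1% and 32.7% of all tested genes. The count of lower genes was 3 without 0 h c or without 12 h b. The most abundant E2 gene per length, NO07G01230, at a mean of 185 FPKM, is a match to UBC32, an enzyme of the endoplasmic reticulum membrane that works in protein quality control in Arabidopsis. It had 414, 240.0 and 254 CPM at 12 h, against 980.1, 1131 and 1058 CPM at 0 h. All 12 later libraries lay below all 3 at 0 h, and the log2 change at 12 h was -1.80 ± 0.20 (edgeR adjusted p = 7e-06). The second UBC32 match, NO14G00250, went the other way, with 88.7, 117 and 144 CPM at 12 h, against 32.9, 52.6 and 51.3 CPM at 0 h (1.35 ± 0.20, edgeR adjusted p = 7.3e-05). Per length the first gene averaged 185 FPKM over the series and the second 21.3 FPKM. The mean of the first was 1056 ± 75.5 at 0 h, 438 ± 105 at 6 h, 303 ± 96.7 at 12 h, 316 ± 20.8 at 24 h and 491 ± 10.96 at 48 h CPM, and that of the second was 45.6 ± 11.05 at 0 h, 66.3 ± 4.55 at 6 h, 116 ± 27.7 at 12 h, 64.2 ± 9.61 at 24 h and 75.7 ± 5.26 at 48 h CPM (SD, n = 3 each).

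UBC7 (NO01G00940) had 216, 219.5 and 221 CPM at 12 h, against 94.1, 93.4 and 89.7 CPM at 0 h, and UBC11 (NO11G03490) had 415, 337 and 317 CPM at 12 h, against 226, 158 and 156 CPM at 0 h. Both rose without overlap, by 1.24 ± 0.08 and 0.98 ± 0.17 (edgeR adjusted p = 4.1e-08 and 0.0003). The E2 of 23 kDa (NO13G03280) had 84.8, 78.0 and 93.8 CPM at 12 h, against 191, 216 and 192 CPM at 0 h (-1.22 ± 0.12, edgeR adjusted p = 1.6e-06). UBC23 (NO06G01370) was lower at all 4 later times, with log2 changes of -0.67 ± 0.09 at 6 h, -0.78 ± 0.10 at 12 h, -0.55 ± 0.09 at 24 h and -0.70 ± 0.09 at 48 h. UBC39 (NO28G00150), a low gene, had 5.13, 6.73 and 8.43 CPM at 12 h, against 11.3, 20.4 and 25.3 CPM at 0 h (-1.49 ± 0.50). Its call was lost without 0 h c, without 12 h a or without 12 h b.

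The E3 ligases choose the substrate, and their transcripts were more often lower than higher. Of 57 E3 genes, 52 were tested. At 6 h, 7 were higher and 16 lower than at 0 h, and at 12 h 10 were higher and 24 lower, 46.2% beside the background of 32.7%. By group mean, 25 of the 52 were highest at 0 h, compared with 29.2% of all tested genes. In the HECT type, which takes ubiquitin over before passing it on, 8 of 10 genes were tested and 3 were lower at 12 h. UPL1 (NO09G00050), the most abundant of them per length at a mean of 40.1 FPKM, had 345, 336 and 389 CPM at 12 h, against 587, 600.1 and 585 CPM at 0 h (-0.73 ± 0.09, edgeR adjusted p = 2.1e-05). It was higher again at 24 h than at 12 h (0.66 ± 0.09, edgeR adjusted p = 7.6e-05).

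A second UPL1 gene, NO04G02780, was lower at all 4 later times, with log2 changes of -0.51 ± 0.07 at 6 h, -1.003 ± 0.07 at 12 h, -0.85 ± 0.07 at 24 h and -0.41 ± 0.07 at 48 h. UPL4 (NO16G02200) had 47.8, 29.3 and 41.6 CPM at 48 h, against 298, 322 and 405 CPM at 0 h. Its change was the largest fall among the HECT genes (-3.11 ± 0.76, edgeR adjusted p = 0.0048). UPL2 (NO18G02260) averaged 334 ± 33.8 CPM at 12 h, against 81.8 ± 61.3 CPM at 0 h, and was not called (2.03 ± 1.12, edgeR adjusted p = 0.13). This gene, too, was named after its values were seen. Single libraries at 0, 24 and 48 h were far below the others of their time in this gene. The other UPL2 gene, NO28G00030, differed over the times (edgeR F-test, adjusted p = 4.9e-05). At 6 h, 1 HECT gene was higher than at 0 h, NO28G00030, and 1 was lower, NO04G02780. The UPL1 genes NO04G01130 and NO25G01690 did not differ over the times (edgeR F-test, adjusted p = 0.88 and 0.96). Both were named after their values were seen, and NO25G01690 was counted unevenly.

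Of the other E3 genes, 44 of 47 were tested, and 10 were higher and 21 lower at 12 h. In 32 of the 47 the Pfam annotation named a RING-type or U-box-type domain, the part of such ligases that binds the E2. The BIG BROTHER-related gene NO10G02880 had 69.6, 60.6 and 53.0 CPM at 12 h, against 298, 311 and 324 CPM at 0 h. Every later library lay below every library of 0 h, and its mean was 311 ± 13.0 at 0 h, 149 ± 12.8 at 6 h, 61.1 ± 8.28 at 12 h, 113 ± 8.003 at 24 h and 174 ± 4.10 at 48 h CPM (SD, n = 3 each). The log2 change at 12 h was -2.35 ± 0.10 (edgeR adjusted p = 3e-09). RKP (NO23G00890) had 38.5, 35.4 and 63.2 CPM at 12 h, against 265, 289.7 and 315 CPM at 0 h, the largest called fall of a member at 12 h (-2.67 ± 0.34, edgeR adjusted p = 1.9e-05). It was back at 209, 212 and 239.6 CPM at 24 h, against 38.5, 35.4 and 63.2 CPM at 12 h (2.27 ± 0.33, edgeR adjusted p = 0.00011).

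PRT6 (NO21G01600), which in Arabidopsis recognises proteins by their first residue, had 59.0, 45.7 and 83.7 CPM at 12 h, against 267, 217 and 216 CPM at 6 h (-1.89 ± 0.24, edgeR adjusted p = 4.3e-05). RHA1B (NO05G03340) had 44.5, 49.1 and 40.3 CPM at 12 h, against 126, 131 and 134 CPM at 0 h (-1.54 ± 0.17, edgeR adjusted p = 5.3e-06). It stayed below 0 h at 24 h (-1.17 ± 0.17) and 48 h (-1.25 ± 0.17). PRT6 was not called at 6 h (0.20 ± 0.23) or at 48 h (-0.33 ± 0.23) against 0 h.

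E3 genes whose known role is protein quality control moved in both directions. CHIP (NO02G05340), which works with chaperones on misfolded proteins, had 38.5, 36.0 and 40.2 CPM at 12 h, against 14.2, 13.96 and 13.4 CPM at 0 h (1.46 ± 0.09, edgeR adjusted p = 5.8e-08). HRD1 (NO15G01300), named after its values were seen, is a ligase of the endoplasmic reticulum membrane that acts in the degradation of misfolded secretory proteins. It had 166, 139 and 153 CPM at 12 h, against 62.7, 63.0 and 65.6 CPM at 0 h (1.26 ± 0.07, edgeR adjusted p = 2.3e-08). Its partner HRD3A (NO17G01210), which in yeast and plants recruits substrates to HRD1, had 99.9, 95.7 and 101 CPM at 12 h, against 65.5, 69.3 and 70.3 CPM at 0 h (0.53 ± 0.06, edgeR adjusted p = 8.5e-06). CHIP and HRD1 were lower again at 24 h than at 12 h, with log2 changes of -0.98 ± 0.09 and -1.05 ± 0.07. SUD1, a relative of the yeast ligase DOA10 of the same membrane, matched several genes, of which NO12G03800 had 20.6, 22.6 and 10.4 CPM at 12 h, against 72.1, 77.7 and 75.1 CPM at 0 h (-2.07 ± 0.25, edgeR adjusted p = 1.5e-05). CHIP and NO12G03800 were named by their size of change, and the HRD3A and other SUD1 genes after their values were seen. The set is thus not a count over quality control ligases.

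The largest rise of any member against 0 h was that of NO25G00220, annotated XBOS33. It had 122, 95.5 and 94.7 CPM at 12 h, against 3.97, 6.63 and 5.76 CPM at 0 h, a 19.1-fold difference (4.25 ± 0.30, edgeR adjusted p = 1.1e-07). Its mean was 5.45 ± 1.36 at 0 h, 32.3 ± 3.47 at 6 h, 104 ± 15.7 at 12 h, 20.1 ± 6.60 at 24 h and 23.6 ± 6.45 at 48 h CPM (SD, n = 3 each), so every later library lay above 0 h and 12 h stood out. NO13G00830, annotated XB3, took another course, with 129, 105 and 84.8 CPM at 24 h, against 29.8, 29.1 and 28.7 CPM at 0 h (1.86 ± 0.14). It had 17.9, 21.2 and 16.8 CPM at 48 h, against 129, 105 and 84.8 CPM at 24 h, which was the largest fall of a member between these times (-2.51 ± 0.14, edgeR adjusted p = 6.3e-07). Proteins of the XB3 family in plants join ankyrin repeats to a RING domain. The Pfam annotation of the 8 members with such a name held ankyrin repeats in 8 and a RING domain in 0, so whether these genes encode ligases is not settled by the annotation.

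**Figure D4:**
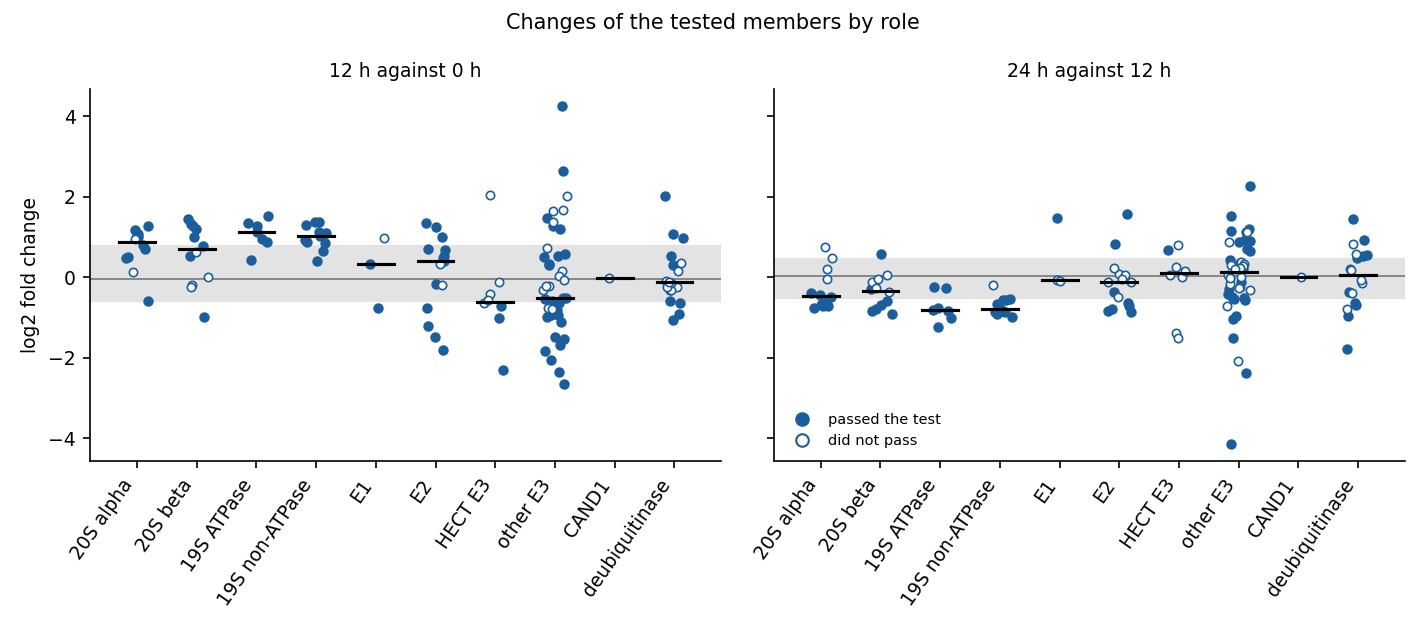
Log2 change of each tested member at 12 h against 0 h (left) and 24 h against 12 h (right), by role, with filled points for called genes, open points for those not called and a black bar for the median of the role. The grey line and band give the median and the middle 50% of all tested genes; the 4 proteasome roles lie mostly above the line on the left and below it on the right, while the E3 genes spread from -2.67 to 4.25 on the left.

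Deubiquitinases remove ubiquitin or trim its chains, and 18 of 20 genes were tested. At 12 h, 5 were higher and 5 lower than at 0 h, which is 27.8% each, beside 32.1% and 32.7% of all tested genes. UCH3 (NO16G00910), of the UCH family of small deubiquitinases, had 39.8, 35.9 and 44.1 CPM at 6 h, against 9.45, 10.8 and 9.12 CPM at 0 h (2.03 ± 0.10, edgeR adjusted p = 4.1e-08). It was still at 39.5, 38.1 and 40.2 CPM at 12 h, and all 12 later libraries lay above all 3 of 0 h. UBP7 (NO11G00930), of the family whose Arabidopsis and yeast members bind the proteasome, had 195, 195 and 185 CPM at 6 h, against 82.6, 83.1 and 76.4 CPM at 0 h (1.25 ± 0.06, edgeR adjusted p = 2.9e-08). It fell at 24 h against 12 h (-0.69 ± 0.06), as most subunit genes did. UCH2 (NO15G00200), of the UCH family too and the most abundant deubiquitinase gene per length at a mean of 57.3 FPKM, had 104, 141 and 143 CPM at 12 h, against 64.1, 64.2 and 57.7 CPM at 0 h (1.06 ± 0.13, edgeR adjusted p = 1.1e-05).

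UBP26 (NO09G01840), which in Arabidopsis takes ubiquitin off histone H2B, had 193, 156 and 179 CPM at 12 h, against 456, 362 and 293 CPM at 6 h (-1.07 ± 0.13, edgeR adjusted p = 3.6e-05). One UBP13 gene, NO03G05190, had 161, 171 and 176 CPM at 24 h, against 61.6, 60.5 and 64.8 CPM at 12 h (1.44 ± 0.09, edgeR adjusted p = 1.7e-07). The other, NO15G01650, had 13.8, 44.8 and 34.9 CPM at 24 h, against 172, 88.4 and 95.9 CPM at 0 h (-1.93 ± 0.67, edgeR adjusted p = 0.033). That fall was not called without 0 h a, without 24 h a, without 24 h c or with a replicate block, where the change was -1.86. CAND1 (NO07G00670), which lets cullin ligases exchange their adapters, had 214, 197 and 199.7 CPM at 6 h, against 141, 132 and 137 CPM at 0 h (0.57 ± 0.06, edgeR adjusted p = 8.8e-06). At 12 h it had 147, 129 and 126 CPM and was not called against 0 h (-0.03 ± 0.06).

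**Figure D5:**
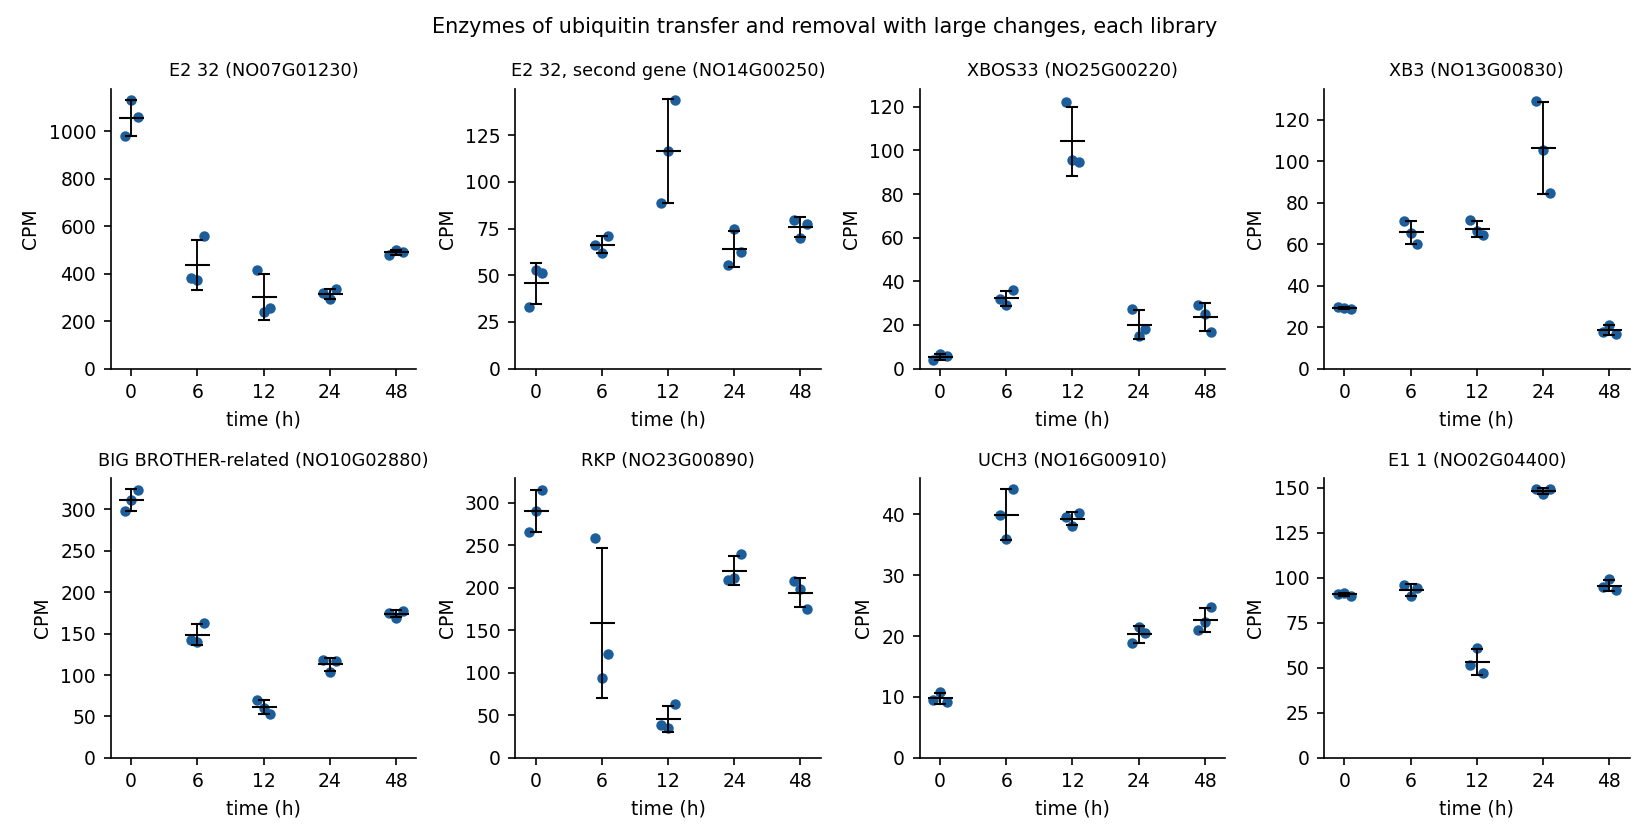
CPM of 8 enzyme genes by time in hours at equal spacing, with each point 1 library and the bars the mean and SD of 3 libraries. XBOS33 had 104 ± 15.7 CPM at 12 h, against 5.45 ± 1.36 CPM at 0 h, and the UBC32 match NO07G01230 had 303 ± 96.7 CPM at 12 h, against 1056 ± 75.5 CPM at 0 h.

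Some members gave all or nothing between libraries of 1 time. The RMA3 match NO14G01660, the other E3 gene with the highest mean per length at 103 FPKM, had 2131, 2245 and 4 counts at 6 h, against 2303, 2622 and 3116 counts at 0 h, and was not called (-0.71 ± 1.06, edgeR adjusted p = 0.62). The SUD1 match NO12G03780 had 781, 894 and 1 counts at 6 h, against 1129, 1386 and 1626 counts at 0 h. In both, 1 library of 6 h was near 0 while the other libraries were not. The listerin match NO12G02380 had 1194, 24 and 7 counts at 12 h, against 5, 23 and 11 counts at 6 h, and its call in that comparison (4.90 ± 1.501, edgeR adjusted p = 0.018) rests on such values. It was 0.52 and not called without library a of 12 h. The call was also lost with DESeq2 (4.89), with a replicate block (4.36), when only the 6 libraries compared were fitted (4.92), without library a of 6 h (4.55) and without library c of 6 h (4.62). The SUD1 and listerin genes were named after their values were seen. The cause of these values was not tested.

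Genes of the same pathway outside the rule were read from a list of 76, of which 72 were tested. At 6 h, 22 were higher and 17 lower than at 0 h, and at 12 h 24 were higher and 22 lower, which is 33.3% and 30.6%. Of all tested genes, 24.7% were higher and 25.7% lower at 6 h, and 32.1% higher and 32.7% lower at 12 h. The list as a whole was thus close to all tested genes at 12 h, and the smaller counts below stand beside the same shares. Those named below were picked for their role or after their values were seen. Of 6 tested ubiquitin precursor genes, 4 were higher and 1 lower at 12 h. The 2 fusions of ubiquitin to ribosomal protein L40 rose together at 12 h, NO04G01970 by 1.32 ± 0.07 and NO06G02130 by 1.21 ± 0.07. They are near copies by annotation, so how the authors' counting split reads between them is uncertain.

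CDC48 is the ATPase that pulls ubiquitinated proteins out of membranes and complexes. Of the 16 tested genes of CDC48 and its cofactors, 2 were higher and 9 lower at 12 h. The higher ones were CDC48-E (NO08G00420), with 851, 916 and 998 CPM at 12 h, against 334, 311 and 319 CPM at 0 h (1.52 ± 0.08), and the cofactor NPL4 (NO22G00700, 0.78 ± 0.09). Of 15 tested genes of the COP9 signalosome and NEDD8 pathway, which control cullin ligases, 5 were higher and 5 lower. Of 19 tested adapters of the SCF and BTB type, 7 were higher and 6 lower. Of 6 tested genes of degradation at the endoplasmic reticulum, 2 were higher and 0 lower. Of 6 tested SUMO genes 2 were higher and 0 lower, and of 3 tested deubiquitinases of other families 1 was higher and 1 lower.

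The 11 genes that the KOG class removed were all tested, and 3 were higher and 4 lower at 12 h. With them added, the members were 54 higher and 27 lower at 6 h. One cullin stood out among them, a choice made after its values were seen. The CUL1 match NO25G02070, a scaffold of SCF ligases, had 37.1, 43.2 and 44.04 CPM at 12 h, against 2.10, 2.89 and 2.10 CPM at 0 h (4.13 ± 0.23, edgeR adjusted p = 2e-08). The neighbouring CUL1 match, NO25G02060, had 201, 188 and 191 CPM at 12 h, against 278, 298 and 288 CPM at 0 h (-0.58 ± 0.09, edgeR adjusted p = 0.00015). The second gene was lower where the first was higher.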

How the data were processed

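RNA sequencing of 15 libraries (5 times, 3 libraries each) was read from 1 deposited table. Per the file headers it gives, for each gene and library, an expected count and an FPKM value calculated by the authors. The deposited expected counts are whole in the table and were used as they stand, in all tests. Set against FPKM they are estimates rounded up, since a deposited count of 1 went with a median of 0.149 reads and one of 2 with 1.43. FPKM served only to compare levels between genes. The submitters' processing notes name HISAT2, with no version. What counted the reads, whether by strand, and on which genome build is not given in the sources used here. No positions were used. None of the 160 genes of the reference table matched an ID.

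The test was that of edgeR 4.0.16 under R 4.3.3 (TMM scaling, filterByExpr by time, 5 group means, quasi-likelihood F-test, Benjamini-Hochberg adjustment over 9321 genes, threshold 0.05). The filter removed 1113 genes. DESeq2 1.42.0 was an alternative, and pandas 2.3.3 and matplotlib 3.10.9 under Python 3.11.15 served for summaries and figures. The fit was run on simulated data in which few genes changed, up and down alike, and only at 6 h. In the data here 76.0% of tested genes differed over the 5 times. The simulation therefore cannot show how scaling and calls behave when most genes change. The other alternatives were upper-quartile and DESeq2 size factors, no filter, at least 50 counts in 3 libraries, a replicate block by letter, a fit of the 6 libraries compared, and leaving out each library.

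Genes were named where they had the largest called changes of their role against 0 h, the 12 largest F statistics, the 3 largest rises or falls between successive times or the highest FPKM of their role, leaving out of the parts on change genes with a mean log2 CPM below 3. Every proteasome subunit could be named. The members, the lists and the rule were chosen with earlier results of these data known. The 6 gene models with an annotation outside the proteasome, the 20S split by E-value, the uneven members and the other genes said to be so were chosen after the values were seen. Libraries of the same letter did not deviate together: the correlation of their deviations from the time means ran from -0.088 to 0.077 over 30 pairs, and 0 exceeded 0.1. Libraries of 1 time differed beyond sampling noise (56.9 to 131.2 in chi-square over degrees of freedom), so none was counted as a copy.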

Additional observations from a re-analysis of the deposited data

How the results depend on the processing

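The 193 results on named genes were each set under 22 alternatives (4246 values). Of these values, 4168 kept their side of the threshold, 75 lost the call and 3 gained one. With a call before or after, 0 changed sign. Some changes near 0 that were not called did change sign, among them RPN3 (NO24G00350) at 48 h against 0 h (0.02, and -0.05 without 0 h c). The 75 belong to 16 results, and those printed in the text carry their exceptions there. Counts of calls outside the limit of 1.5 times were few and small, and the cause was not tested. Proteasome subunits lower at 12 h against 0 h numbered 2, and 1 with the replicate block or with only the 6 libraries compared. Subunits higher at 12 h against 6 h numbered 11, and 7 without the 6 gene models annotated partly or wholly outside the proteasome. Subunits lower at 12 h against 6 h numbered 7, with 13 under upper-quartile factors and 3 with only the 6 libraries compared. At 48 h against 24 h, the 1 higher subunit was 0 with only the 6 libraries compared, and the 3 lower ones were 0 without the 6 models. Leaving out 1 library gave ranges of 6 to 15 for members lower at 48 h against 24 h. For subunits it gave 1 to 3 lower at 12 h and 0 to 4 lower at 24 h against 0 h, 3 to 8 lower at 12 h against 6 h, 1 to 2 higher at 24 h against 12 h, and 0 to 1 higher and 1 to 5 lower at 48 h against 24 h. For subunits higher than at 0 h the range was 33 to 34 at 6 h, 32 to 35 at 12 h, 20 to 29 at 24 h and 19 to 21 at 48 h. The letters share only a name and were not taken as pairs. With the replicate block, 51 members were higher and 23 lower at 6 h, and 58 higher and 35 lower at 12 h, and 33 subunits were higher at 6 h and 34 at 12 h. The largest shift of the median of all genes under another scaling was 0.08 on the log2 scale. Depth limits only the lowest genes, since a count of 0 allows at most 0.187 CPM.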

Other observations

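Some of the largest changes in the pathway lay outside the rule, in the adapters that bring substrates to cullin ligases. The F-box and WD-40 gene NO06G03260 had 35.7, 38.9 and 40.7 CPM at 12 h, against 0.584, 0.548 and 0.840 CPM at 0 h (5.85 ± 0.45, edgeR adjusted p = 2.5e-07). The tubby-like F-box gene NO07G01950 had 141, 206 and 189 CPM at 12 h, against 14.5, 12.6 and 12.2 CPM at 0 h (3.77 ± 0.32, edgeR adjusted p = 5.8e-07). Both fell at 24 h against 12 h, with log2 changes of -2.15 ± 0.37 and -2.49 ± 0.30. The E2 enzyme of NEDD8, Ubc12 (NO10G02550), which modifies cullins, had 395, 571 and 492 CPM at 12 h, against 119.6, 114 and 114 CPM at 0 h (2.07 ± 0.19). A gene with BTB and MATH domains, NO19G02500, was counted unevenly. Its libraries at 0 h gave 762, 832 and 1083 counts, 6 h gave 1, 1 and 1, 12 h gave 1, 1 and 1, 24 h gave 609, 2 and 1, and 48 h gave 1, 1 and 1, so 1 library of 24 h was near the 0 h libraries and the other later ones were near 0. These genes were picked after their values were seen.

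For 3 pairs of genes with consecutive IDs and the same annotation, picked after their values were seen, the values of both genes are given, at 12 h for the EIN3-binding F-box and derlin pairs and at 6 h for the CUL3 pair. The EIN3-binding F-box gene NO25G01430 had 6.48, 15.7 and 8.62 CPM at 12 h, against 3.502, 1.496 and 2.56 CPM at 0 h (2.03 ± 0.53), and NO25G01420, beside it, had 1051, 1158 and 1078 CPM at 12 h, against 2808, 2827 and 2743 CPM at 0 h (-1.35 ± 0.06). The derlin gene NO05G02850, for a channel protein of degradation at the endoplasmic reticulum, had 21.8, 34.4 and 29.2 CPM at 12 h, against 6.19, 8.77 and 7.86 CPM at 0 h (1.90 ± 0.23, edgeR adjusted p = 1.3e-05), and its neighbour NO05G02840 was not called (-0.16 ± 0.10, edgeR adjusted p = 0.21), except without library c of 6 h (-0.17). The CUL3 gene NO17G01090 had 48.7, 76.0 and 73.3 CPM at 6 h, against 12.5, 18.8 and 25.8 CPM at 0 h (1.79 ± 0.38), and its neighbour NO17G01080 had 159, 128 and 132 CPM at 6 h, against 205, 212 and 192 CPM at 0 h (-0.54 ± 0.11). The authors' counting is not stated to use strand, so reads shared by neighbouring or overlapping genes cannot be told apart. The difference within a pair was not tested.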
